A study of Mus musculus with 4 samples.

Results

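The TNF receptor superfamily is the set of surface receptors through which TNF and its relatives act on immune cells, and 10 of its genes were followed here by symbol, out of 35798 named genes in the count table: Tnfrsf1a, Tnfrsf1b, Tnfrsf4, Tnfrsf9, Tnfrsf18, Cd27, Fas, Ltbr, Tnfrsf10b and Tnfrsf14. All 10 had counts above 0 in every library, and all 10 were among the 13822 genes that passed the filter on low counts. The RNA came from 4 bulk libraries of Ly49H+ NK cells sorted from the spleens of NSG hosts, which had received CD45.1 wild-type cells mixed with CD45.2 TNFR2 KO cells and were infected with murine cytomegalovirus (MCMV) a day later. There were 2 libraries per genotype from D3.5 of infection, each from the pooled spleens of 3 hosts, and same-numbered wild-type and TNFR2 KO libraries came from the same pool. NK cells were enriched by negative selection before the sort. Every library was thus from a sort for transferred cells in infected hosts, with no uninfected group. Genotype, CD45 form and sort gate changed together. NSG mice lack T, B and NK cells but keep myeloid cells and carry the CD45.1 form themselves. The TNFR2 KO cells came from mice that lack the receptor in all tissues, and donors and hosts were young adult mice.

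These receptors bind ligands of the TNF family as trimers and have no enzyme activity of their own. One branch, with TNFR1, Fas and the TRAIL receptor, carries a death domain that can recruit the caspase machinery, whereas TNFR2 and the costimulatory receptors recruit TRAF proteins and pass the signal to NF-kB. In NK cells the costimulatory receptors are known to adjust activation, survival and cytokine release, and CD27 marks the less mature stages of mouse NK cells.

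Of the 10 receptor genes, Tnfrsf1b and Ltbr fell strongly and Tnfrsf14, Tnfrsf4 and Tnfrsf1a fell less in the TNFR2 KO libraries. Cd27, Tnfrsf9 and Tnfrsf18 were slightly higher there under TMM scaling and slightly lower when the libraries were scaled on NK lineage genes. Levels are in CPM, counts brought to a common library size by TMM scaling, which takes most genes as equal between libraries, and differences are log2-fold changes, negative where TNFR2 KO was lower. With the thresholds of the study, a change of more than 1 on the log2 scale in either direction at an adjusted p below 0.05, 2 of the 10 genes were lower and 0 higher, where 11.8% of all tested genes were lower and 1.56% higher. With scaling on NK lineage genes 5 of the 10 were lower past both, among 2678 lower and 58 higher genes in all. At an adjusted p under 0.05 alone, 5 receptor genes were lower and 3 higher under TMM (these 3 being lower with scaling on NK lineage genes), or 8 of 10, beside 50.4% of all genes in either direction, 26.2% lower and 24.2% higher. The libraries of both genotypes did not overlap for any of the 10 genes, which was also true of 74% of all genes tested. Their median log2-fold change was -0.49, with a range from -2.82 to 0.39, and the median over all genes was -0.003.

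**Figure D1:**
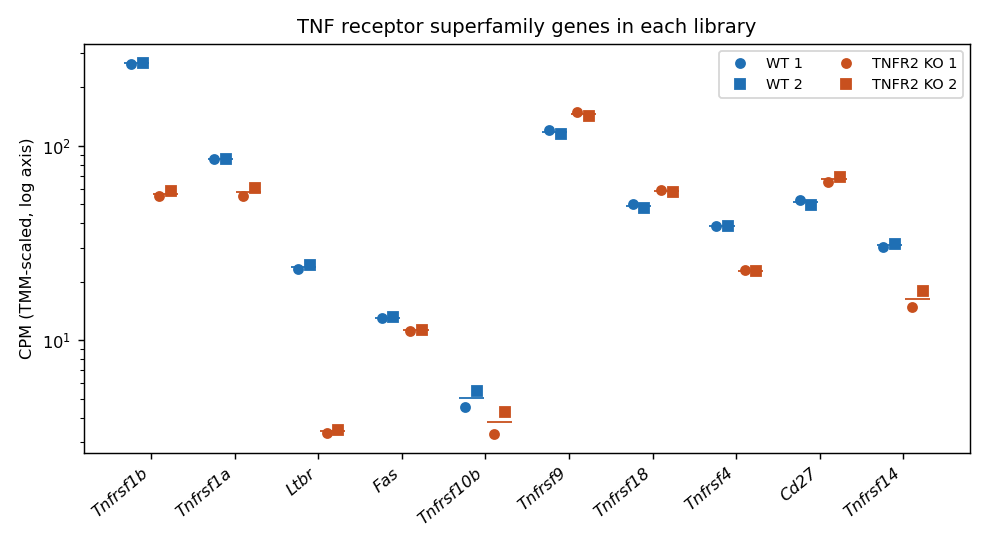
CPM of the 10 receptor genes in each library on a log axis, with wild-type in blue, TNFR2 KO in orange, circles for replicate 1, squares for replicate 2 and lines at the mean of 2. Tnfrsf1b and Ltbr show the widest gaps between genotypes, and duplicates lie close together except for Tnfrsf10b and Tnfrsf14.

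Markers of other cells changed with genotype and stand beside every value that follows. Of the 21 tested macrophage or monocyte markers, 20 were lower past both thresholds, with a median change (log2) of -2.89 and quartiles of -3.08 and -2.72. Csf1r, the receptor that defines macrophages, measured 254.2 and 255.5 CPM in wild-type and 27.4 and 26.7 CPM in TNFR2 KO. Adgre1, which encodes the macrophage antigen F4/80, measured 97.1 and 93.9 CPM against 9.69 and 8.83 CPM. The summed level of the macrophage list went from 2637 and 2629 CPM to 1017 and 992.2 CPM, and the marker that rose was Ccr2, which NK cells also express. Lower past both thresholds were also 13 of 13 neutrophil markers, 9 of 10 mast cell or basophil markers, 8 of 10 erythroid, 6 of 11 dendritic cell or class II, 5 of 6 megakaryocyte and 4 of 7 stromal or endothelial markers, with 1 marker each of the mast cell and dendritic cell lists higher, while 0 of 10 T cell and 0 of 3 tested B cell markers passed them. The summed level changed from between 1015 and 1033 CPM to between 96.9 and 100.8 CPM for the neutrophil list, from between 1217 and 1221 to between 97.6 and 97.8 CPM for the mast cell or basophil list and from between 2141 and 2169 to between 1034 and 1058 CPM for the dendritic cell list. It ran from 446 to 451 CPM in wild-type and 392 to 399 CPM in TNFR2 KO for the erythroid list, at a mean of 38.3 and 4.26 for megakaryocytes, from 113.3 to 119.2 and from 136 to 137.2 for stroma, from 1354 to 1367 and from 1265 to 1299 for T cells, and from 52.4 to 52.8 and from 70.04 to 73.5 for B cells. Cd3e, part of the T cell receptor complex, lay between 99.1 and 120.3 CPM in all libraries.

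NK cell genes went the other way under TMM, since 25 of the 28 genes of the NK cell list were higher at an adjusted p under 0.05 and the summed list rose from between 20022 and 20123 CPM to between 35207 and 35566 CPM. Ncr1, which encodes the NK cell receptor NKp46, measured 258.3 and 255.5 CPM in wild-type and 511.3 and 510.5 CPM in TNFR2 KO, and Klra8, the gene of Ly49H itself, 313.3 and 315.9 CPM against 762.1 and 725.8 CPM. Markers of the labelled cell were therefore abundant in all 4 libraries. The NK lineage genes used for scaling were another list of 28, not the NK cell list above. Under TMM their median log2-fold change was 0.55, and 24 of them were higher at an adjusted p under 0.05. Scaling the libraries on these genes in place of TMM moved the median of all genes to -0.56, a shift common to all genes. In bulk libraries, fewer cells of a type and less RNA per cell cannot be told apart, and the part of these markers in the receptor values was not tested.

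Tnfrsf1b, the gene of TNFR2 that is disrupted in the KO donors, was read in both TNFR2 KO libraries at 21.3% of the wild-type level. Its 4 values were 264.7 and 268.6 CPM in wild-type and 55.1 and 58.6 CPM in TNFR2 KO. The gap between genotypes was far wider than that between duplicates. The log2-fold change was -2.23 (standard error 0.0352, adjusted p = 1.35e-13, edgeR's quasi-likelihood test) and ranged from -2.27 to -2.18 when single libraries were dropped. The gene (GRCm38, the build called mm10; chromosome 4, minus strand, 145213463 to 145246870) has a single annotated coding transcript of 3818 bases. Only 0.42% of its stretches of 31 bases, the length by which Kallisto matches reads by default, occur in other genes. Counts summed per gene do not show which exons the remaining reads came from.

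Tnfrsf1a, the gene of TNFR1, the other receptor of TNF and the one with a death domain, fell much less. Wild-type libraries held 85.8 and 85.4 CPM of it, TNFR2 KO libraries 55.1 and 60.6 CPM. Every TNFR2 KO value was below every wild-type value, with a wider spread between the TNFR2 KO duplicates. The log2-fold change was -0.57 (standard error 0.0467, adjusted p = 6.63e-07), or -1.13 with scaling on NK lineage genes. To compare genes with each other, CPM were divided by the length of the longest annotated coding transcript. On this scale of CPM per kilobase, Tnfrsf1b was 1.74 and 1.78 times as abundant as Tnfrsf1a in the wild-type libraries and 0.565 and 0.546 times in the TNFR2 KO libraries. The balance of RNA for both TNF receptors thus changed sides on the per-kilobase scale, with Tnfrsf1b being the targeted gene. In CPM the TNFR2 KO values of Tnfrsf1b and Tnfrsf1a were close, at 55.1 and 55.1 in replicate 1 and 58.6 and 60.6 in replicate 2. The transcript length behind the remaining Tnfrsf1b reads is not known.

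Ltbr encodes the lymphotoxin beta receptor, which activates the non-canonical NF-kB route and is known from myeloid and stromal cells more than from lymphocytes. It showed the largest change of the 10 genes, from 23.4 and 24.5 CPM in wild-type to 3.33 and 3.46 CPM in TNFR2 KO. The TNFR2 KO level was 14.2% of the wild-type level, with no overlap. The log2-fold change was -2.82 (standard error 0.0994, adjusted p = 2.05e-10) and ranged from -2.84 to -2.77 when single libraries were dropped. This change lies between the quartiles of the macrophage marker list given above, and that of Tnfrsf1b, the targeted gene, lies outside them. The other medians were -5.03 (mast cell or basophil), -2.68 (megakaryocyte), -2.61 (dendritic cell or class II), -2.29 (neutrophil) and -1.85 (erythroid). They were -1.16 for stromal or endothelial, -0.19 for T cell and 0.33 for B cell markers. None of this shows from which cells the RNA of either gene came.

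Promoter windows of RefSeq on GRCm38.p6, from 250 bases before to 50 bases after the annotated start, were matched for 9 of the 10 genes. The windows of Tnfrsf1b (chr4:145246821-145247120, minus strand) and Ltbr (chr6:125313836-125314135, minus strand), the genes past both thresholds, are printed beside a window of Tnfrsf9 (chr4:150927749-150928048, plus strand). Letters in capitals mark matches to the NF-kB motif on either strand, the site class of the factors that these receptors activate.
Tnfrsf1b: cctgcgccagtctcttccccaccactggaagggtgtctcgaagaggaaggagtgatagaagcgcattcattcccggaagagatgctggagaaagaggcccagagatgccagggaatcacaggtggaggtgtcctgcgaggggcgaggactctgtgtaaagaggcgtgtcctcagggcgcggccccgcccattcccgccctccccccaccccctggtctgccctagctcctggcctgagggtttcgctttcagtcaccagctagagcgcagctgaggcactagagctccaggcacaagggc
Ltbr: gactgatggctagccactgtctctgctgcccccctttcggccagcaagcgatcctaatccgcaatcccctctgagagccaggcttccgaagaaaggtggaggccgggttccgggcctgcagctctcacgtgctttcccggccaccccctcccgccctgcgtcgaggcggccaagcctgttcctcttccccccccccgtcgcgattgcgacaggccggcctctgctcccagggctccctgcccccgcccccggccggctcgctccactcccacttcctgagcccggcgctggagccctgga
Tnfrsf9: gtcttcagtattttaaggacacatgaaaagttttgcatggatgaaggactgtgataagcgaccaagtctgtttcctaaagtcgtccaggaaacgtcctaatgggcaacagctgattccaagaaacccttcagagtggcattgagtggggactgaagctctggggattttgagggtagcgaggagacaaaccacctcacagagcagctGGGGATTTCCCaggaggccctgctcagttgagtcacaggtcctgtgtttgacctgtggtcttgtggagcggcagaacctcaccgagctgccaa
Of all 32851 promoter windows in the table, 4.51% held the NF-kB motif. Among the windows of the receptor genes it was found in this one of Tnfrsf9, as overlapping matches that begin 43 and 42 bases before the start, and not in the other window of the same gene or in those of the other 8. The AP-1 motif TGANTCA, found in 7.81% of all windows, was matched in the same window of Tnfrsf9, apart from the NF-kB match, and in that of Fas. The ETS motif GAGGAAGT of PU.1 and the T-box motif AGGTGTGA, in 3.2% and 1.28% of all windows, were matched in 0 of these windows on either strand. The window of Ltbr held 23 CpG dinucleotides and that of Tnfrsf1b 13, where the median of all windows was 7. A match is a run of letters and not a measurement of binding.

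The death receptors Fas and Tnfrsf10b did not pass the test. Fas, which triggers apoptosis when bound by Fas ligand, measured 13 and 13.2 CPM in wild-type and 11.1 and 11.4 CPM in TNFR2 KO, and its change was -0.22 (standard error 0.0924, adjusted p = 0.0683). Tnfrsf10b, the mouse death receptor for TRAIL, was the lowest of the 10 per kilobase, at 4.56 and 5.51 CPM in wild-type and 3.28 and 4.28 CPM in TNFR2 KO, which rest on 127 to 203 counts per library. The highest TNFR2 KO value came close to the lowest wild-type value. Its log2-fold change was -0.42 (standard error 0.178, adjusted p = 0.07). With the shared pool of spleens as a block the adjusted p of Tnfrsf10b was 0.0365, and it was 0.00782 without TNFR2 KO replicate 2, while Fas passed with the libraries scaled on their size alone (adjusted p = 0.025) and with genes under a mean of 10 CPM left out (adjusted p = 0.0259). With the libraries scaled on their size alone Tnfrsf10b also passed (adjusted p = 0.0425), and with scaling on NK lineage genes both were lower (adjusted p = 7.38e-06 for Fas and 0.000296 for Tnfrsf10b). Of the stretches of 31 bases in Tnfrsf10b, 11.4% occur in other genes, which makes this low count less certain.

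The costimulatory receptors split in direction under TMM, whereas all 4 were lower with scaling on NK lineage genes. Tnfrsf9, the gene of the activation-induced receptor CD137 and of the promoter window with the NF-kB match, measured 120.6 and 114.9 CPM in wild-type and 148.9 and 142.3 CPM in TNFR2 KO. Its values were higher in both TNFR2 KO libraries, with a log2 change of 0.31 (standard error 0.0363, adjusted p = 1.81e-05) under TMM and -0.25 with scaling on NK lineage genes. Tnfrsf18, the gene of GITR, measured 50.4 and 48.1 CPM against 59.4 and 57.7 CPM. The change was 0.25 (standard error 0.0455, adjusted p = 0.000638) under TMM and -0.31 with scaling on NK lineage genes. Cd27, the receptor of CD70 and a mark of less mature NK cells, measured 53 and 49.8 CPM in wild-type and 65.4 and 69.3 CPM in TNFR2 KO. Its log2-fold change was 0.39 (standard error 0.0479, adjusted p = 2.66e-05) under TMM and -0.17 with scaling on NK lineage genes.

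Tnfrsf4, the gene of OX40, which supports survival of activated lymphocytes, fell under every scaling. It measured 38.6 and 38.8 CPM in wild-type and 23.1 and 22.7 CPM in TNFR2 KO. Duplicates were nearly equal and the genotypes far apart. The log2-fold change was -0.76 (standard error 0.0535, adjusted p = 1.59e-07), with a range from -0.76 to -0.74 over the libraries left out and -1.31 with scaling on NK lineage genes. Tnfrsf14, the gene of HVEM, a receptor for LIGHT that also binds the inhibitory receptor BTLA and the NK cell receptor CD160, went from 30.2 and 31.3 CPM to 14.8 and 17.9 CPM. This was the decrease nearest to the fold threshold, at -0.92 (standard error 0.0794, adjusted p = 1.07e-06). It was past both thresholds without TNFR2 KO replicate 2 (-1.05) and, with all libraries, under scaling on NK lineage genes (-1.47). Of the stretches of 31 bases, 8.18% in Tnfrsf14 and 4.6% in Cd27 occur in other genes, and 21.9% of those in Tnfrsf18 occur in Gm16008, a gene on the opposite strand that overlaps it. The counting is not stated to have used strand, so reads from Tnfrsf18 and Gm16008 might be mixed.

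**Figure D2:**
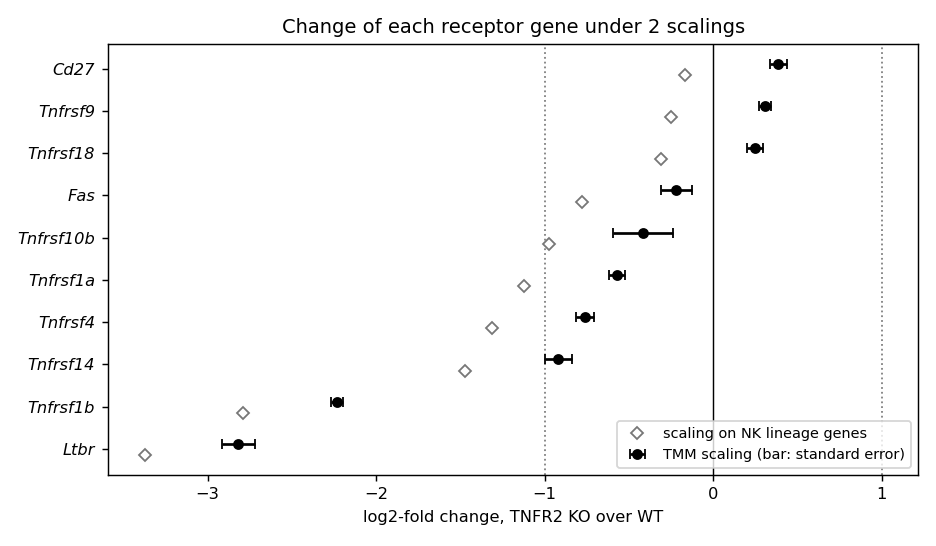
Log2-fold change (TNFR2 KO relative to wild-type) for each receptor gene, as black circles with standard errors under TMM scaling and as open diamonds with scaling on NK lineage genes. Dotted lines mark the fold threshold of 1 in either direction. Cd27, Tnfrsf9 and Tnfrsf18 lie above 0 under TMM and below 0 under NK lineage scaling, and the other 7 genes lie below 0 under both.

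The order of the receptors by level also changed. In wild-type, Tnfrsf1b led with 69.8 ± 0.721 CPM per kilobase (SD, n = 2), ahead of Tnfrsf9 with 55.7 ± 1.91, Tnfrsf18 with 41.4 ± 1.4, Tnfrsf1a with 39.7 ± 0.143, Tnfrsf4 with 37.6 ± 0.147 and Cd27 with 33 ± 1.46. Tnfrsf14, Ltbr, Fas and Tnfrsf10b followed at 26.2 ± 0.622, 11.4 ± 0.398, 8.84 ± 0.113 and 1.58 ± 0.21 CPM per kilobase. No neighbours in this order overlapped between duplicates. In TNFR2 KO, Tnfrsf9 came first with 68.8 ± 2.20, then Tnfrsf18 with 49.2 ± 1.01, Cd27 with 43.2 ± 1.74, Tnfrsf1a with 26.8 ± 1.80 and Tnfrsf4 with 22.2 ± 0.274. Tnfrsf1b was the sixth, at 14.9 ± 0.638, and could not be told from Tnfrsf14 at 13.9 ± 1.82, since their duplicates overlapped. Fas then measured 7.6 ± 0.105, Ltbr 1.61 ± 0.0436 and Tnfrsf10b 1.19 ± 0.221 CPM per kilobase.

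As a share of the summed CPM per kilobase of the 10 genes, Tnfrsf1b went from 21.5% to 5.97%, Tnfrsf9 from 17.1% to 27.6%, Tnfrsf18 from 12.7% to 19.7% and Cd27 from 10.1% to 17.3%. Such shares are tied together, so a decrease of the targeted gene alone raises the shares of the others. The sum itself was 327.1 and 323.2 CPM per kilobase in wild-type and 247.4 and 251.5 in TNFR2 KO. Without Tnfrsf1b the other 9 genes summed to 257.7 and 252.9 in wild-type and 233 and 236.2 in TNFR2 KO. Under TMM scaling, most of the net decrease in the sum was thus the targeted gene. This net figure hides opposite changes among the other 9 genes. Decreases of Tnfrsf4, Tnfrsf1a, Tnfrsf14, Ltbr, Fas and Tnfrsf10b were partly offset by increases of Tnfrsf9, Cd27 and Tnfrsf18. Lengths of annotated transcripts stand in for those the NK cells used.

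**Figure D3:**
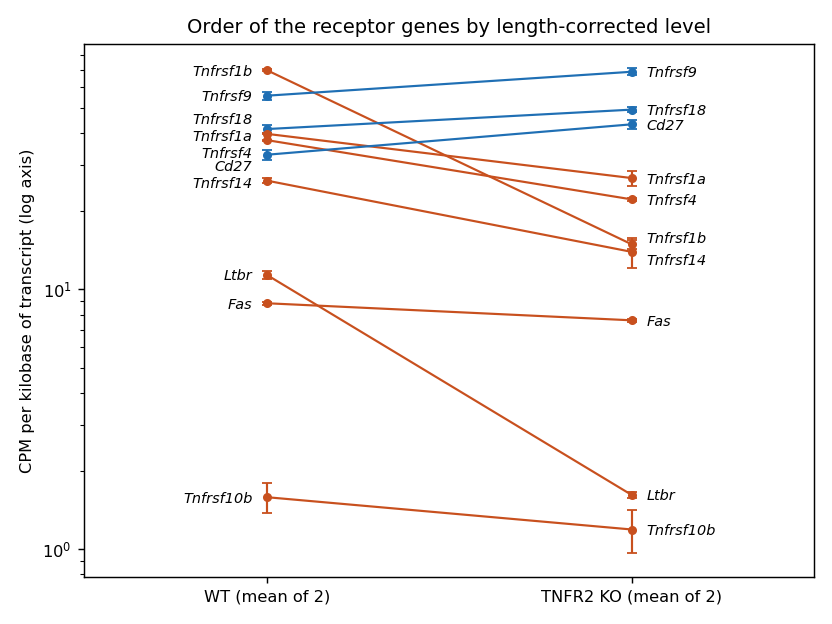
Mean CPM per kilobase of the longest annotated coding transcript in wild-type and TNFR2 KO, on a log axis, with bars for the SD of 2 libraries. Lines in orange fall and lines in blue rise under TMM scaling (with NK lineage scaling the 3 blue genes are lower in TNFR2 KO), and Tnfrsf1b goes from the highest of the 10 in wild-type to the sixth in TNFR2 KO.

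Several of these genes are neighbours in the genome, and neighbours had unlike changes. On chromosome 6 of GRCm38, Cd27 (minus strand, 125232622 to 125237010), Ltbr (minus strand, 125306571 to 125313885) and Tnfrsf1a (plus strand, 125349362 to 125362484) lie in a row, with gaps of 69.6 kb and 35.5 kb. Their log2-fold changes were 0.39, -2.82 and -0.57, where the first is -0.17 with scaling on NK lineage genes. On chromosome 4, Tnfrsf4 (plus strand, 156013843 to 156016612) ends 9.55 kb before Tnfrsf18 (plus strand, 156026164 to 156028895). Tnfrsf4 fell by 0.76 on the log2 scale, and Tnfrsf18 had a change of 0.25 under TMM and -0.31 with NK lineage scaling.

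Chromosome 4 also holds Tnfrsf9 (plus strand, 150914562 to 150946102) and Tnfrsf14 (minus strand, 154921933 to 154928563), at 5.67 Mb and 9.68 Mb from the targeted Tnfrsf1b. Tnfrsf8, the gene of CD30 and the closest receptor gene to Tnfrsf1b at 20.3 kb, had a change of -0.09 (adjusted p = 0.336) under TMM. With scaling on NK lineage genes the change of Tnfrsf8 was -0.65 (adjusted p = 6.84e-06). Of 286 genes tested within 15 Mb of Tnfrsf1b, 12.2% passed both thresholds, against 13.3% of all genes with a position, and their median change was 0.004. Outside these clusters, Fas is on chromosome 19 (plus strand, 34290666 to 34327772) and Tnfrsf10b on chromosome 14 (plus strand, 69767472 to 69784411).

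**Figure D4:**
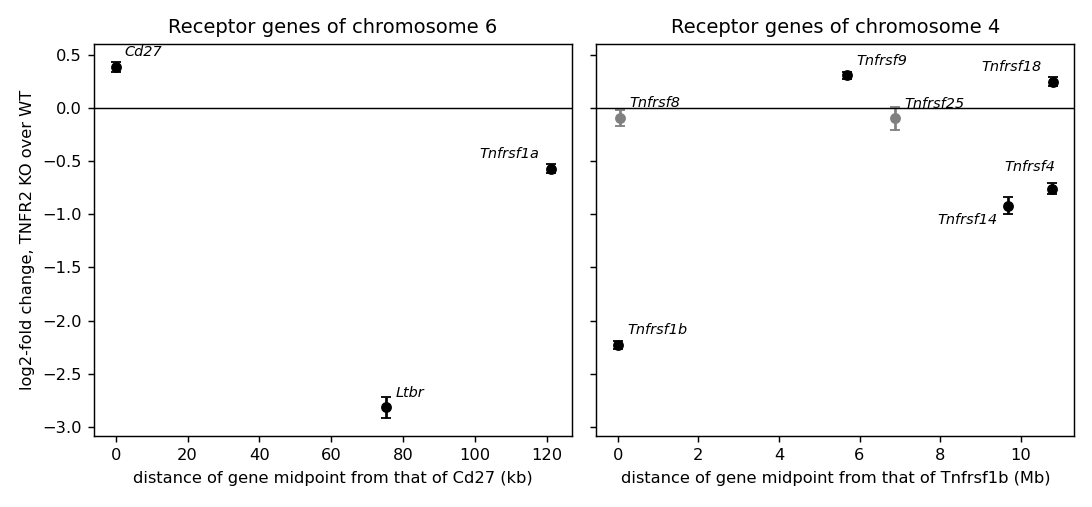
Log2-fold change (TNFR2 KO relative to wild-type), with standard errors, against the distance between gene midpoints for the receptor genes of chromosome 6 (left, kb from Cd27) and chromosome 4 (right, Mb from Tnfrsf1b). Black points are among the 10 genes followed here and grey points are Tnfrsf8 and Tnfrsf25. Adjacent genes differ in the size of their change, as for Tnfrsf4 at -0.76 and Tnfrsf18 at 0.25 under TMM (-0.31 with NK lineage scaling).

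Genes of the ligands ran in several directions and often apart from their receptors. Of the 12 ligands and counter-receptors of the 10 genes, 10 were tested, and 3 were lower and 0 higher past both thresholds, beside 11.8% and 1.56% of all genes. At an adjusted p under 0.05 alone, 4 were lower and 2 higher (of which Cd160 was lower with scaling on NK lineage genes), beside 26.2% and 24.2% of all genes, and the median was -0.14. Tnf, the ligand of both TNF receptors, fell from 18 and 18.7 CPM in wild-type to 2.71 and 3.56 CPM in TNFR2 KO, and its change was -2.56 (standard error 0.13, adjusted p = 6.82e-09). Ltb, which forms the ligand of the lymphotoxin beta receptor, fell from 22.6 and 27.5 CPM to 10.9 and 11.5 CPM, a change of -1.16 (standard error 0.0977, adjusted p = 8.22e-07). Tnf and Ltb were thus lower, as were Tnfrsf1a and Ltbr, while a lower Tnfrsf1b was given by the design as the targeted gene. Tnfsf14, the other partner gene set beside Ltbr, changed by -0.15 and was not called. Lta, whose product binds the TNF receptors or joins with Ltb, was at or under 0.597 CPM in all libraries. Its change of -1.49 (adjusted p = 0.0393) was not called with the shared pool as a block (adjusted p = 0.0618), with DESeq2 (adjusted p = 0.17), with no filter (adjusted p = 0.059) or with any library left out (adjusted p from 0.109 to 0.288).

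Fasl, the death ligand that NK cells use for killing, rose from 57.7 and 56.1 CPM in wild-type to 103.1 and 102.3 CPM in TNFR2 KO while its receptor gene Fas did not pass the test. Its log2-fold change was 0.85 (standard error 0.0376, adjusted p = 1.75e-09) under TMM and 0.30 with scaling on NK lineage genes. Tnfsf10, the gene of TRAIL and the ligand gene with the highest CPM, measured 112.6 and 113.4 CPM against 106.5 and 107.2 CPM, a change of -0.08 (adjusted p = 0.0555). It was called lower with library size alone (adjusted p = 0.00319) and with the filter at a mean of 10 CPM (adjusted p = 0.00759). With scaling on NK lineage genes its change was -0.64 (adjusted p = 4.6e-09). For the partners of HVEM, Cd160 had a change of 0.31 (adjusted p = 3.12e-05; -0.25 with scaling on NK lineage genes), Btla fell by 0.51 (adjusted p = 0.000196) and Tnfsf14 changed by -0.15 (adjusted p = 0.328). Btla and Tnfsf14 were named after their values had been seen, as were Tnfsf9 and Tnfsf4, the ligand genes of Tnfrsf9 and Tnfrsf4, with changes of -0.13 (adjusted p = 0.515) and 0.26 (adjusted p = 0.422). Cd70 and Tnfsf18, the ligand genes of Cd27 and Tnfrsf18, were too low to test, at no more than 0.132 and 0.0624 CPM in any library. RNA for the ligands of Cd27 and Tnfrsf18 was therefore next to undetectable in these libraries.

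**Figure D5:**
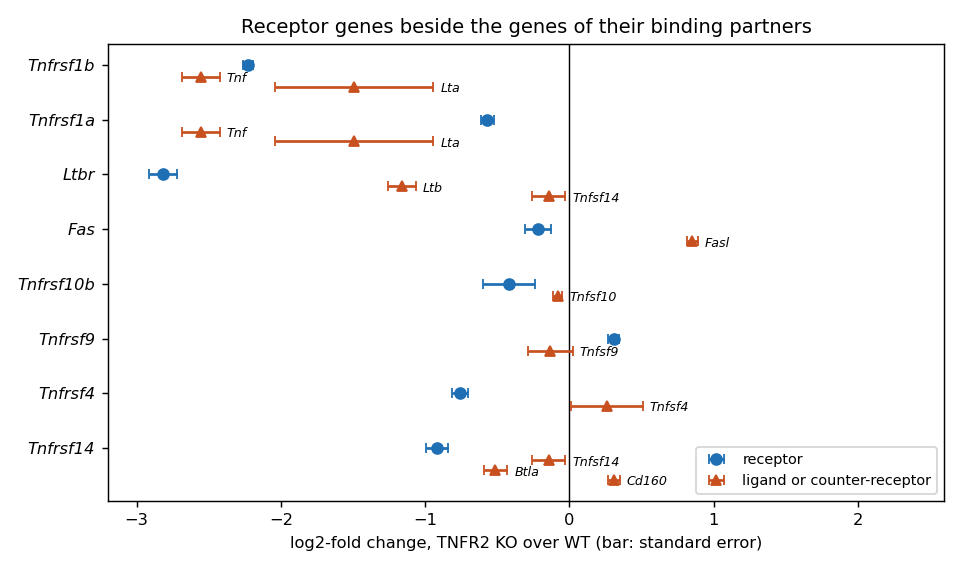
Log2-fold change (TNFR2 KO relative to wild-type), with standard errors, for 8 receptor genes (blue circles) and the genes of their binding partners (orange triangles) under TMM scaling. Tnf and Ltb lie below 0 with their receptors, Fasl lies at 0.85 above Fas at -0.22, and Cd160 and Tnfrsf9 above 0 turn negative with scaling on NK lineage genes.

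Of the 18 other receptors of the superfamily, 12 were tested, of which 4 were lower and 0 higher past both thresholds (11.8% and 1.56% of all genes), with a median change (log2) of -0.11. The lower ones were Cd40 (-3.38, adjusted p = 1.15e-10), Tnfrsf11a, the gene of RANK (-2.47, adjusted p = 8.83e-07), Tnfrsf21, a death domain receptor (-1.74, adjusted p = 8.59e-09) and Tnfrsf13b, the gene of TACI (-1.4, adjusted p = 3.39e-06). CD40 is known from B cells, dendritic cells and macrophages, RANK from the osteoclast and macrophage lineage and TACI from B cells. Cd40 measured 22.9 and 21.6 CPM in wild-type and 2.15 and 2.12 CPM in TNFR2 KO. The one of the 12 with the highest CPM, Relt, measured 40.8 and 43.5 CPM against 40.4 and 43.1 CPM, so that its genotypes overlapped (log2-fold change -0.02, adjusted p = 0.841). Tnfrsf8 had 18.3 and 17.8 CPM against 17.6 and 16.2 CPM.

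Downstream of the receptors, changes were small. Of 13 adaptors and kinases at the receptors, 0 passed both thresholds in edgeR's test under TMM. At an adjusted p under 0.05 alone, 3 were lower and 4 higher, and 9 had an unadjusted p under 0.05. These 7 of 13 stand beside 50.4% of all genes, a similar share, and the 9 beside 7696 of 13822 genes with an unadjusted p under 0.05. Scaling on NK lineage genes moved the median of all genes by -0.56, more than all of these increases but that of Traf5, 0.61. With that scaling Traf5 changed by 0.05 and was not called (adjusted p = 0.785). Without wild-type replicate 1 its change under TMM was 0.47. DESeq2 likewise placed 0 of the 13 past both thresholds. Scaling on NK lineage genes placed 1 there, beside 2736 of all 13822 genes. The 3 with the highest CPM, Cflar, Casp8 and Ripk1, which govern the choice between survival and death at death receptors, had changes of -0.11 (adjusted p = 0.015, but 0.191 without wild-type replicate 1 and 0.0649 without TNFR2 KO replicate 2), -0.002 (adjusted p = 0.969) and 0.09 (adjusted p = 0.0508, or 0.0371 with the shared pool as a block). Among genes named after their values had been seen, Birc3, a ubiquitin ligase of the TNF receptor complex, fell by 0.45 (adjusted p = 3.95e-06), and Traf3, which restrains the non-canonical route, by 0.31 (adjusted p = 2.2e-05). Tradd, the death domain adaptor of TNFR1, had a change of 0.28 (adjusted p = 0.000292; -0.28 with scaling on NK lineage genes), and Traf1 had a change of 0.18 (adjusted p = 0.0088, but 0.0662 without wild-type replicate 1 and 0.0651 with library size alone; -0.38 with NK lineage scaling).

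Among 12 NF-kB subunits, inhibitors and kinases, 0 passed both thresholds in edgeR's test or in DESeq2, and 6 were lower and 4 higher at an adjusted p under 0.05 alone under TMM (each increase being smaller than the -0.56 by which NK lineage scaling moved all genes), with 10 at an unadjusted p under 0.05. Of all genes, 26.2% were lower and 24.2% higher at the adjusted p alone, and 7696 of 13822 had an unadjusted p under 0.05. With scaling on NK lineage genes 3 of the 12 were past both thresholds, beside 2736 of all 13822 genes tested. The one with the highest CPM, Nfkb1, which encodes the p50 subunit and its precursor, measured 402.2 and 399.4 CPM in wild-type and 400.1 and 402 CPM in TNFR2 KO, with overlapping genotypes. Nfkbia, the gene of the inhibitor IkB alpha, went from 164.6 and 163.4 CPM to 131.5 and 131.1 CPM, a log2-fold change of -0.32 (adjusted p = 1.85e-06). Tnfaip3, the gene of the feedback inhibitor A20, had a change of 0.11 (adjusted p = 0.0073, but 0.193 with library size alone; -0.45 with scaling on NK lineage genes). Named after their values had been seen, Nfkb2, Relb and Nfkbie fell by 0.59, 0.51 and 0.47 on the log2 scale (adjusted p = 2.46e-08, 1.32e-05 and 3.58e-06). Nfkb2 and Relb encode the subunits of the non-canonical route, which the lymphotoxin beta receptor, CD40 and the costimulatory receptors are known to engage.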

How the data were processed

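The authors trimmed paired-end reads of poly-A selected, strand-specific libraries with Trimmomatic 1.4, assigned them to mm10 transcripts with Kallisto 0.46.1 and used Tximport to sum transcripts to genes. The deposited values are these estimated counts by gene symbol. Which annotation was used is not stated in the sources read. Totals ran from 32713256 to 39543650 counts per library, so genes of a few CPM, such as Tnfrsf10b, rest on the fewest counts. A row without a gene name, 0.0558% to 0.0728% of the counts, was left out.

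Counts were rounded, filtered with filterByExpr, TMM-scaled and tested with edgeR 4.0.16 (R 4.3.3; quasi-likelihood, genotype as the only term, Benjamini-Hochberg over 13822 genes), with steps tested on simulated data. An exact permutation test over 2 against 2 libraries cannot reach 0.05, so p-values come only from the fit over all genes and reflect the spread between these pools, which may be technical. That spread was small, with a biological coefficient of variation of 3.33%. Duplicates differed by more than sampling noise, the mean chi-square of a gene being 3.29 in wild-type and 3.49 in TNFR2 KO.

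The labels give same-numbered libraries a shared pool of spleens, so the numbers pair them. Across genes, same-numbered libraries deviated from their group means with a correlation of 0.0243.

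The 10 genes and all lists were chosen with earlier results of these data known. Named genes were the 10 receptors and, in each pathway list, those past both thresholds and the 3 most abundant, with exceptions stated. Alternatives were DESeq2 1.42.0, other scalings, no filter, a filter at a mean of 10 CPM, the pool as a block, and each library left out. Positions and lengths come from GENCODE on GRCm38. No protein sequences were used here.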

Additional observations from a re-analysis of the deposited data

How the results depend on the processing

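Of all genes, 1842 passed both thresholds and 478 did with genes under a mean of 10 CPM left out, a filter that also left 2 of the other receptors in place of 4. Leaving out each library gave 1650 to 1867 genes, 2 to 3 of the 10 receptors past both thresholds and 8 to 9 at an adjusted p alone, 4 of the other receptors, 2 of the ligands, and 0 of the adaptors and NF-kB genes. Scaling on NK lineage genes gave 5 receptors in place of 2, 1 adaptor in place of 0 and 3 NF-kB genes in place of 0, with 2678 lower and 58 higher genes in all against 1627 and 215. It turned Tnfrsf9 to -0.25, Tnfrsf18 to -0.31, Cd27 to -0.17, Cd160 to -0.25, Ripk1 to -0.46, Nfkb1 to -0.56, Tnfaip3 to -0.45, Tnfsf4 to -0.30, Traf1 to -0.38, Tradd to -0.28 and Rela to -0.38. These turns follow from the shift common to all genes, whose median moved to -0.56, and are not separate findings on each gene. The same holds for Fas, Tnfrsf10b, Relt, Tnfrsf8, Tnfsf10, Tnfsf14, Tnfsf9 and Casp8. These were not called under TMM and were lower at an adjusted p under 0.05 with NK lineage scaling. Traf5 was no longer called with that scaling. Which scaling is nearer to the levels per cell was not tested. Changes close to 0 also turned. With single libraries left out, Relt ranged from -0.0562 to 0.0428, Casp8 from -0.0456 to 0.0520, Tnfsf4 from -0.0122 to 0.513 and Tnfsf9 from -0.295 to 0.0185, and TNFR2 KO replicate 2 was the library whose loss turned Casp8, Tnfsf4 and Tnfsf9, as did that of wild-type replicate 1 for Casp8. The loss of wild-type replicate 2 or TNFR2 KO replicate 1 turned Relt. Casp8 was 0.00680 with upper-quartile scaling and 0.00353 with no filter, and Nfkb1 was -0.0601 with library size alone and -0.0356 with the filter at 10 CPM. With the replicate number as a block, Tnfrsf10b (-0.42) and Ripk1 (0.09) passed the adjusted p and Lta (-1.48) did not, and no other named gene changed its call. The block called 1830 genes in all. Tnfrsf1a, Tnfrsf1b, Tnfrsf4, Ltbr and Tnfrsf14 stayed lower at an adjusted p under 0.05 under all 12 alternatives. Depth limits chiefly Tnfrsf10b, Lta, Tnfsf4 and the receptors and ligands too low to test.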
